A study of Mus musculus with 12 samples.

Results

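The antioxidant and glutathione defence genes of the mouse hypothalamus were described here as 39 named genes. They comprise the superoxide dismutases, catalase, the glutathione peroxidases, the peroxiredoxins with sulfiredoxin, the thioredoxin system, the enzymes that make and recycle glutathione, the heme oxygenases with the quinone reductase Nqo1, the regulator pair Nfe2l2 and Keap1, and the glutathione transferases. A member was measured where the array annotation gave it a probe set with exactly 1 gene symbol, which held for 37 of the 39, out of 17186 genes measured in all. Prdx5 and Prdx6 are not listed in the annotation used and were not analysed here. All 37 measured members had a signal of at least 6 on the log2 scale on all 12 arrays.

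Hypothalamic RNA came from male C57BL/6J mice aged 21 weeks. CON mice had plain water. ASP mice had the sweetener aspartame in their water from in utero onwards, at an estimated intake of 46 mg/kg. CGP mice were the offspring of dams given CGP 39551, which blocks the NMDA class of glutamate receptors, at 5 mg/kg of the dams' weight until postnatal day 28, and had plain water after that. ASP+CGP mice had both agents. All mice fasted overnight before tissue collection. The hypothalamus was cut as a rectangular block, and equal amounts of RNA from all mice of a group were mixed into 1 pool that was hybridized to 3 arrays. The p-values below therefore measure the spread between arrays of a pool and not between mice, and what a treatment did cannot be told apart from whatever else set its pool apart. In such tissue RNA, fewer cells of a type and less RNA per cell cannot be told apart either.

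Cells convert superoxide to hydrogen peroxide with superoxide dismutases, and remove the peroxide with catalase, glutathione peroxidases and peroxiredoxins. Glutathione peroxidases draw their electrons from the tripeptide glutathione and peroxiredoxins mostly from thioredoxin, and both carriers are regenerated at the expense of NADPH. The transcription factor Nrf2, encoded by Nfe2l2 and held down by Keap1, switches on many of these genes through the antioxidant response element. In the brain, glial cells keep much of this system and supply neurons with the precursors of glutathione.

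The pools differed in markers of other tissues, which bears on every ASP value below. In the ASP pool, 12 of 12 measured adrenal cortex markers, 6 of 6 adrenal medulla, 13 of 14 exocrine pancreas, 13 of 14 white adipose and 5 of 5 brown adipose markers were significantly higher than in the CON pool, as were 4 of 8 lymphoid and antigen presentation, 2 of 8 liver and 2 of 10 choroid plexus markers. The summed linear signal of the adrenal cortex list lay between 1800 and 1886 on CON arrays, 1873 and 1894 on CGP arrays, 1798 and 1827 on ASP+CGP arrays and 21060 and 21450 on ASP arrays. Of its 12 genes, 3 (Hsd3b1, Hsd3b6 and Mc2r) had means under 6 in every pool but ASP. White adipose markers summed to 2555 to 2674 in CON, 2633 to 2715 in ASP+CGP and 9124 to 9380 in ASP, and the lymphoid list to 1507 to 1612 in CON and 2827 to 3015 in ASP. The pituitary list was at 18620 to 19580 in CON, 33430 to 34010 in CGP, 37550 to 37790 in ASP and 4863 to 5467 in ASP+CGP. Of its 12 markers 9 were significantly higher in ASP than in CON, as were 1 of 9 endothelium and 1 of 8 cerebellum markers. Of 12 meningeal and fibroblast markers 1 was higher and 3 were lower, and 1 of 8 ependyma and tanycyte markers was lower. Of the brain cell lists, 0 of 10 astrocyte, 0 of 9 oligodendrocyte, 0 of 10 microglia and 0 of 10 neuron markers differed significantly between ASP and CON by limma, with 1 gene of each list at an unadjusted p under 0.05. Of all 17186 genes, 2907 were at an unadjusted p under 0.05 by limma in that comparison. Hypothalamic neuropeptides and regulators were present in all pools, and of 17 of them 2 were higher and 6 lower in ASP. Pomc belongs to this list and to the pituitary list, and is counted in each, here and below. The part of the other tissues in the differences of antioxidant genes was not tested.

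**Figure D1:**
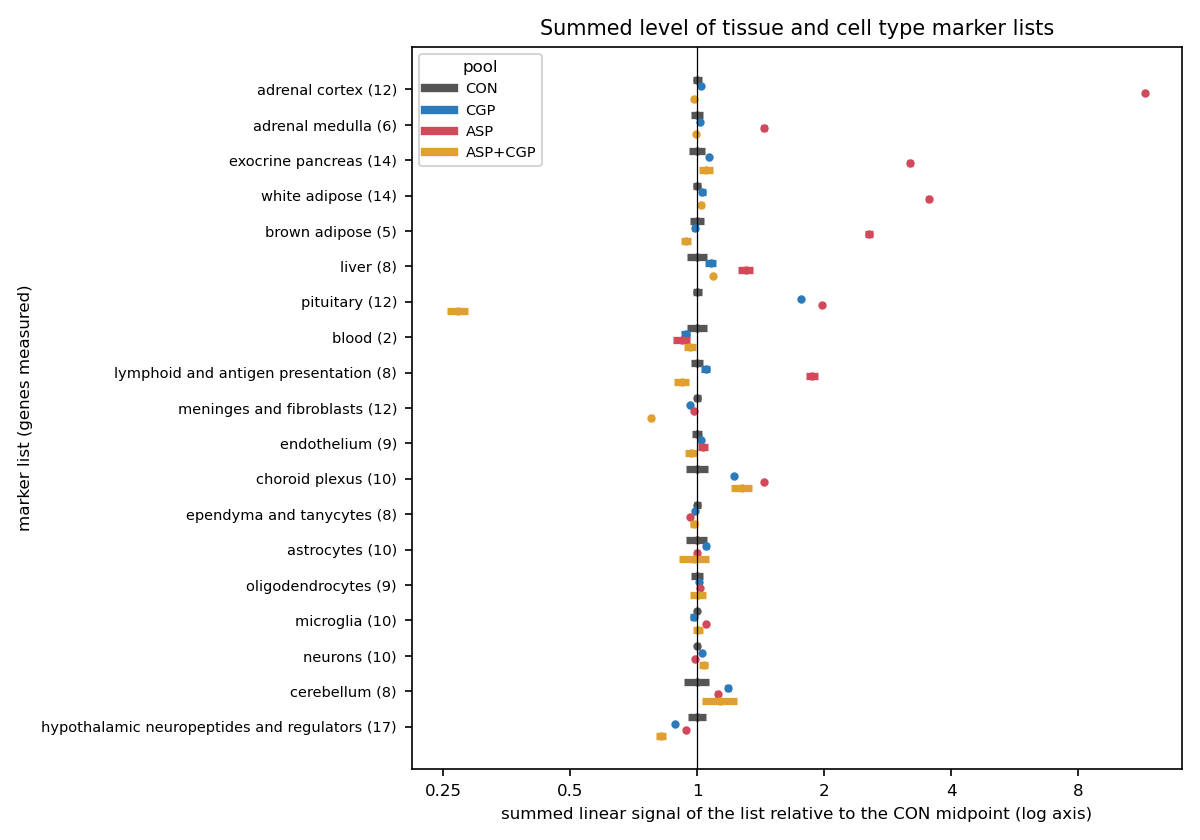
Summed linear signal of each marker list relative to the middle of the CON range (log axis), with the number of measured genes in brackets. A bar spans the lowest to the highest of the 3 arrays of a pool and a dot marks the middle of that span. Adrenal cortex markers reached 21060 to 21450 in ASP against 1800 to 1886 in CON, while the neuron, astrocyte, oligodendrocyte and microglia lists lay close to the CON line in all pools.

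Chronic aspartame exposure went with higher signals of a minority of the antioxidant genes. Between ASP and CON, 7 of 37 members (18.9%) were significantly higher (limma, Benjamini-Hochberg adjusted p under 0.05 over all genes), against 2.92% of all genes tested, and 0 were lower, against 1.16% of all genes. The 7 were Sod3, Hmox1, Mgst1, Cat, Prdx3, Nfe2l2 and Txn2. Only Sod3 and Hmox1 also exceeded a 1.4-fold change, the limit for a differentially expressed gene (DEG) in the study, that is 5.4% of members against 1.02% of all genes higher and 0.0291% lower. The median log2 fold change of the 37 members was 0.01, beside -0.01 for all genes, so the middle of the list lay where the middle of all genes lay. All 3 ASP arrays lay above all 3 CON arrays for 11 members and below them for 6, while 9.93% of all genes lay above and 13.9% below.

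**Figure D2:**
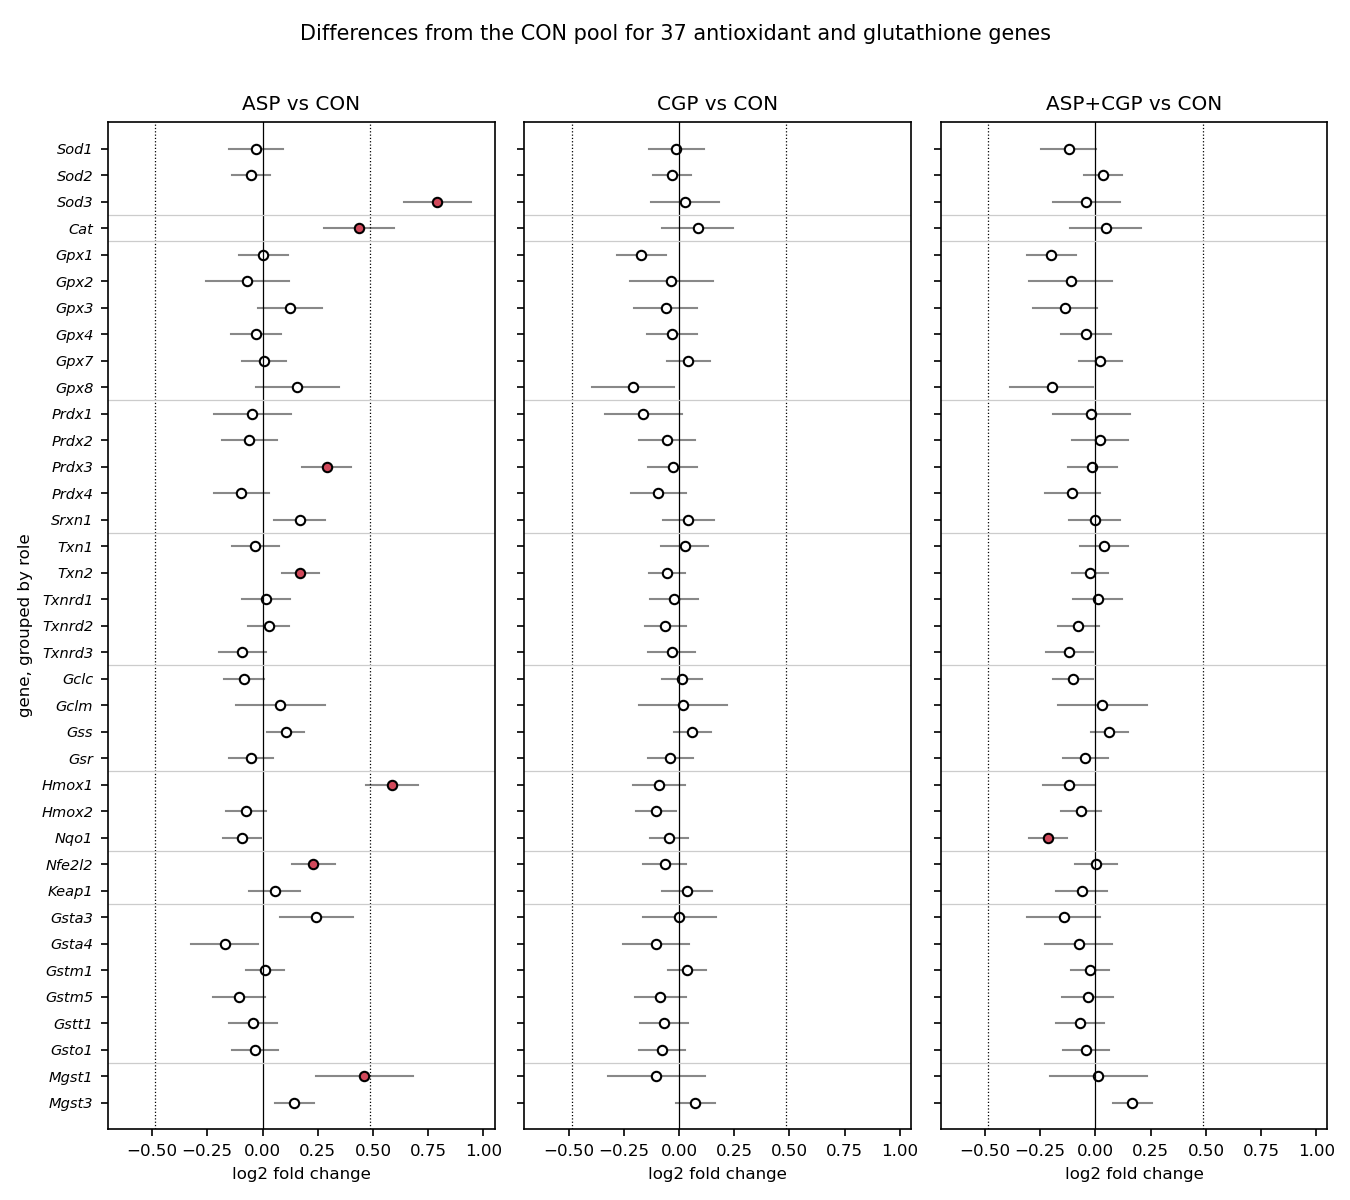
Log2 fold change of the 37 members against CON, grouped by role, with 95% confidence intervals. Filled points have an adjusted p under 0.05 and the dotted lines mark a 1.4-fold change. In ASP, Sod3 at 0.79 and Hmox1 at 0.58 stood farthest from 0, while in CGP no point is filled and in ASP+CGP only Nqo1 is, at -0.22.

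Of the 3 superoxide dismutases, 1 was upregulated in ASP. Sod3 encodes the secreted enzyme of the extracellular space. On the log2 scale it read 8.14, 8.08 and 8.08 in CON, 8.15, 8.03 and 8.20 in CGP, 8.70, 8.94 and 9.04 in ASP and 8.08, 8.05 and 8.05 in ASP+CGP. The ASP arrays stood above all others, and the other 9 arrays shared 1 narrow range. Sod3 was upregulated 1.73-fold in ASP vs CON (log2 fold change 0.79 ± 0.07 SE, 95% interval 0.64 to 0.95, adjusted p = 5.64e-06). Against CON its differences were 0.03 ± 0.07 in CGP and -0.04 ± 0.07 in ASP+CGP. Sod1, the cytosolic enzyme, and Sod2, the mitochondrial one, changed by -0.03 ± 0.06 and -0.05 ± 0.04 in ASP vs CON, and neither was significant in any comparison.

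Catalase, the peroxisomal enzyme that splits hydrogen peroxide, read 10.57, 10.61 and 10.50 in CON, 10.66, 10.60 and 10.67 in CGP, 10.96, 11.03 and 10.99 in ASP and 10.72, 10.71 and 10.38 in ASP+CGP. The ASP arrays were again the highest, and ASP+CGP array 3 lay well under its companions. Cat was upregulated 1.35-fold in ASP vs CON (0.44 ± 0.07, adjusted p = 0.00289), and differed from CON by 0.08 ± 0.07 in CGP and 0.05 ± 0.07 in ASP+CGP.

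None of the 6 glutathione peroxidases passed the test in ASP vs CON, and 0 of the 6 reached an unadjusted p under 0.05. Their differences ran from -0.07 for Gpx2, the epithelial form, to 0.16 for Gpx8, which resides in the endoplasmic reticulum. Gpx4, which reduces lipid peroxides within membranes, changed by -0.03 ± 0.05 and Gpx7 by 0.01 ± 0.05. The plasma form Gpx3 read 11.67, 11.75 and 11.62 in CON and 11.79, 11.84 and 11.79 in ASP, without overlap, but its difference of 0.13 ± 0.07 missed the threshold (adjusted p = 0.373). Gpx8 read 8.69, 8.66 and 8.99 in CON, 8.59, 8.57 and 8.55 in CGP, 8.85, 8.95 and 9.004 in ASP and 8.55, 8.45 and 8.74 in ASP+CGP. Its CON array 3 reached into the ASP range, and without CON array 3 and ASP+CGP array 3 Gpx8 joined the members that rose in ASP vs CON, making 8 in place of 7. Gpx1, the abundant cytosolic form, was at 10.60, 10.60 and 10.75 in CON and at 10.63, 10.69 and 10.64 in ASP, which overlapped, and at 10.42, 10.56 and 10.47 in CGP and 10.48, 10.42 and 10.46 in ASP+CGP, below every CON array. Neither Gpx1 difference from CON passed the test (CGP -0.17 ± 0.05, adjusted p = 0.209, and ASP+CGP -0.20 ± 0.05, adjusted p = 0.0761).

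Of the peroxiredoxins, the mitochondrial Prdx3 was upregulated 1.22-fold in ASP vs CON (0.29 ± 0.05, adjusted p = 0.00394). Prdx3 read 10.39, 10.38 and 10.48 in CON, 10.42, 10.43 and 10.31 in CGP, 10.80, 10.66 and 10.66 in ASP and 10.38, 10.41 and 10.42 in ASP+CGP, so that ASP again stood apart from 3 overlapping pools. The cytosolic Prdx1 and Prdx2 and the endoplasmic reticulum form Prdx4 differed by -0.05 ± 0.08, -0.06 ± 0.06 and -0.10 ± 0.06 and did not pass. Srxn1 encodes sulfiredoxin, which repairs overoxidized peroxiredoxins. Its ASP arrays at 10.54, 10.49 and 10.53 all exceeded the CON arrays at 10.41, 10.44 and 10.22, yet the difference of 0.17 ± 0.05 was not significant (adjusted p = 0.112). Gpx4, Prdx1 and Prdx2 each have 2 probe sets, which may measure near-identical copies, and neither probe set of any of them passed in any comparison.

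Of the 5 members of the thioredoxin system, 1 passed in ASP vs CON. Txn2, the mitochondrial thioredoxin, read 10.98, 11.01 and 10.97 in CON, 10.92, 10.96 and 10.91 in CGP, 11.19, 11.16 and 11.12 in ASP and 10.97, 10.96 and 10.95 in ASP+CGP. It was upregulated 1.13-fold in ASP vs CON (0.17 ± 0.04, adjusted p = 0.0194), a small difference whose adjusted p rose to between 0.0526 and 0.0909 when CON array 1 or 3 or ASP array 1 or 2 was left out. The cytosolic Txn1 changed by -0.03 ± 0.05. The reductases that recharge thioredoxin, Txnrd1 in the cytosol, Txnrd2 in mitochondria and Txnrd3, which also reduces glutathione, changed by 0.02 ± 0.05, 0.03 ± 0.04 and -0.09 ± 0.05, and none passed.

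The enzymes that make and recycle glutathione did not pass in any comparison. Gclc, the catalytic subunit of the rate-limiting enzyme, was at 10.54, 10.53 and 10.53 in CON and at 10.43, 10.44 and 10.47 in ASP, a difference of -0.08 ± 0.04 without overlap of arrays (adjusted p = 0.33). Gclm, its modifier subunit, differed by 0.08 ± 0.09, with CON array 3 at 10.67 and ASP+CGP array 3 at 10.63 against 10.92 to 11.04 on the first 2 arrays of those pools. Gss, which joins glycine in the last step, read 8.59, 8.55 and 8.56 in CON, 8.63, 8.63 and 8.62 in CGP, 8.69, 8.66 and 8.66 in ASP and 8.60, 8.60 and 8.68 in ASP+CGP. All arrays of the 3 treated pools were above all CON arrays, and none of the differences was significant (0.06 ± 0.04, 0.10 ± 0.04 and 0.06 ± 0.04, adjusted p = 0.578, 0.178 and 0.468). Gsr, which reduces oxidized glutathione, differed by -0.05 ± 0.05. The 95% intervals of all 4 in ASP vs CON lay within a 1.4-fold change in either direction, as they did for 97.9% of all genes.

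Heme oxygenase 1, the inducible enzyme that degrades heme to biliverdin, iron and carbon monoxide, was the other DEG among the members. Hmox1 read 8.09, 8.19 and 8.15 in CON, 8.02, 8.04 and 8.10 in CGP, 8.72, 8.73 and 8.74 in ASP and 7.98, 8.16 and 7.94 in ASP+CGP. No array of another pool came near the ASP arrays. Its rise was 1.499-fold (0.58 ± 0.05, 95% interval 0.47 to 0.70, adjusted p = 8.91e-06). The constitutive Hmox2 differed by -0.08 ± 0.04 (adjusted p = 0.388). Nqo1, a quinone reductase that is widely used as a readout of Nrf2, read 7.01, 7.07 and 7.03 in CON, 7.02, 6.99 and 6.96 in CGP, 6.96, 6.96 and 6.91 in ASP and 6.85, 6.80 and 6.81 in ASP+CGP. Its ASP arrays lay just under the CON arrays, with a difference of -0.09 ± 0.04 that did not pass (adjusted p = 0.244).

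Nfe2l2, which encodes Nrf2 itself, was upregulated 1.17-fold in ASP vs CON (0.23 ± 0.04, adjusted p = 0.00781). The arrays read 9.59, 9.60 and 9.60 in CON, 9.49, 9.48 and 9.61 in CGP, 9.80, 9.82 and 9.85 in ASP and 9.56, 9.59 and 9.64 in ASP+CGP. Its inhibitor Keap1 differed by 0.05 ± 0.05 and did not pass. Of 6 members widely taken as Nrf2 targets (Nqo1, Hmox1, Gclc, Gclm, Srxn1 and Txnrd1), a set picked after the values were seen, 1 was significantly higher in ASP, Hmox1, and 5 were not. In so short a set 1 gene is already a share above the 2.92% of all genes that were higher. Outside the members, 3 of 11 other Nrf2 target genes were significantly higher in ASP.

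Because Nrf2 acts through a DNA element in promoters, the 250 bases upstream of the start sites in RefSeq (GRCm38.p6) were searched on both strands for the core letters TGACNNNGC. A window was found for 33 of the 39 members and not for Sod3, Hmox1, Gclc, Gsr, Gsta4 and Prdx6. The letters stood in at least 1 window of 8 of the 33 (24.2%) and in 3112 of 27025 genes of the whole table (11.5%). Among members that were higher in ASP, 2 of 5 with a window held them, Nfe2l2 and Mgst1, and among the other measured members 6 of 27 did, Gsta3, Sod1, Gclm, Prdx1, Gstm5 and Txnrd1. A match is a description of letters and not a binding site. The windows below show 2 members that rose in ASP vs CON (Nfe2l2 and Mgst1), 1 that passed between ASP and ASP+CGP but not against CON (Gsta3) and 1 that passed in no comparison (Gclm), each 5′ to 3′ on the strand of the gene with the match in capitals. They are Nfe2l2 at chr2:75704664-75704913 on the minus strand, with the match starting 240 bases before the start site, Mgst1 at chr6:138140277-138140526 on the plus strand, Gsta3 at chr1:21240335-21240584 on the plus strand and Gclm at chr3:122245307-122245556 on the plus strand. In Mgst1 and Gclm the match reads on the opposite strand.
Nfe2l2: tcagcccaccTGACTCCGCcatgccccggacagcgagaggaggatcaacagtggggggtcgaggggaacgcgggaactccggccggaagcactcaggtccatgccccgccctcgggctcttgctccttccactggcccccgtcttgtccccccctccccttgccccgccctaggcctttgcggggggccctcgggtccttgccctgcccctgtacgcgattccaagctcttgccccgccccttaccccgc
Mgst1: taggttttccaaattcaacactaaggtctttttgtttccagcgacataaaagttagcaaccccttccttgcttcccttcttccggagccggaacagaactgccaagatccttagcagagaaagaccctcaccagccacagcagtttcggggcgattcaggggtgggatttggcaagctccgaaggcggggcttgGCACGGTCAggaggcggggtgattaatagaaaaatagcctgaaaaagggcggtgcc
Gsta3: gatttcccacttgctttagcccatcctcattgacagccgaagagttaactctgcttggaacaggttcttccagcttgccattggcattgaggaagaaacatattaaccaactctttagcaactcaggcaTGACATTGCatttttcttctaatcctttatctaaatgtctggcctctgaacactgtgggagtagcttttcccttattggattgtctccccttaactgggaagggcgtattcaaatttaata
Gclm: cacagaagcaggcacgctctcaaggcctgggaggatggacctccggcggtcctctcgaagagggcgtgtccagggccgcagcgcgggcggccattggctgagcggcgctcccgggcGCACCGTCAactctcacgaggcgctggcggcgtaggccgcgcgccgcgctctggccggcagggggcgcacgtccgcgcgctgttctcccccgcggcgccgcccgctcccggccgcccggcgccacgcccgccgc

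Glutathione transferases couple glutathione to electrophiles. Of the 6 cytosolic members 0 passed in ASP vs CON, with 2 at an unadjusted p under 0.05, and their differences ran from -0.17 for Gsta4 to 0.24 for Gsta3. Gsta4, which detoxifies products of lipid peroxidation, was at 10.97, 10.99 and 11.18 in CON and at 10.93, 10.90 and 10.81 in ASP (-0.17 ± 0.07, adjusted p = 0.228). Gsta3 was at 7.24, 7.10 and 6.93 in CON and at 7.24, 7.37 and 7.38 in ASP (0.24 ± 0.08, adjusted p = 0.104). The ASP arrays of Gsta4 lay under its CON arrays, and those of Gsta3 overlapped with CON. Gstm1, Gstm5, Gstt1 and Gsto1 differed by 0.01 ± 0.04, -0.11 ± 0.05, -0.04 ± 0.05 and -0.03 ± 0.05.

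The microsomal transferase Mgst1, a membrane enzyme that also reduces lipid peroxides, read 9.04, 8.84 and 9.30 in CON, 8.95, 8.98 and 8.94 in CGP, 9.57, 9.49 and 9.49 in ASP and 8.99, 8.93 and 9.29 in ASP+CGP. All ASP arrays were above all others, and CON array 3 and ASP+CGP array 3 were the next highest. Mgst1 was upregulated 1.37-fold in ASP vs CON (0.46 ± 0.10, adjusted p = 0.0193). Without CON array 3 and ASP+CGP array 3 its difference was 0.58 and it counted as a DEG (adjusted p = 7.98e-05), while leaving out CON array 1 or 2 or any 1 ASP array raised the adjusted p to between 0.0563 and 0.0796. Mgst3 was at 10.34, 10.26 and 10.29 in CON, at 10.36, 10.36 and 10.39 in CGP, at 10.47, 10.38 and 10.46 in ASP and at 10.46, 10.45 and 10.46 in ASP+CGP. All arrays of the 3 treated pools lay above all CON arrays, but no difference from CON passed (0.07 ± 0.04 in CGP, adjusted p = 0.505, 0.14 ± 0.04 in ASP, adjusted p = 0.069, and 0.17 ± 0.04 in ASP+CGP, adjusted p = 0.0612).

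**Figure D3:**
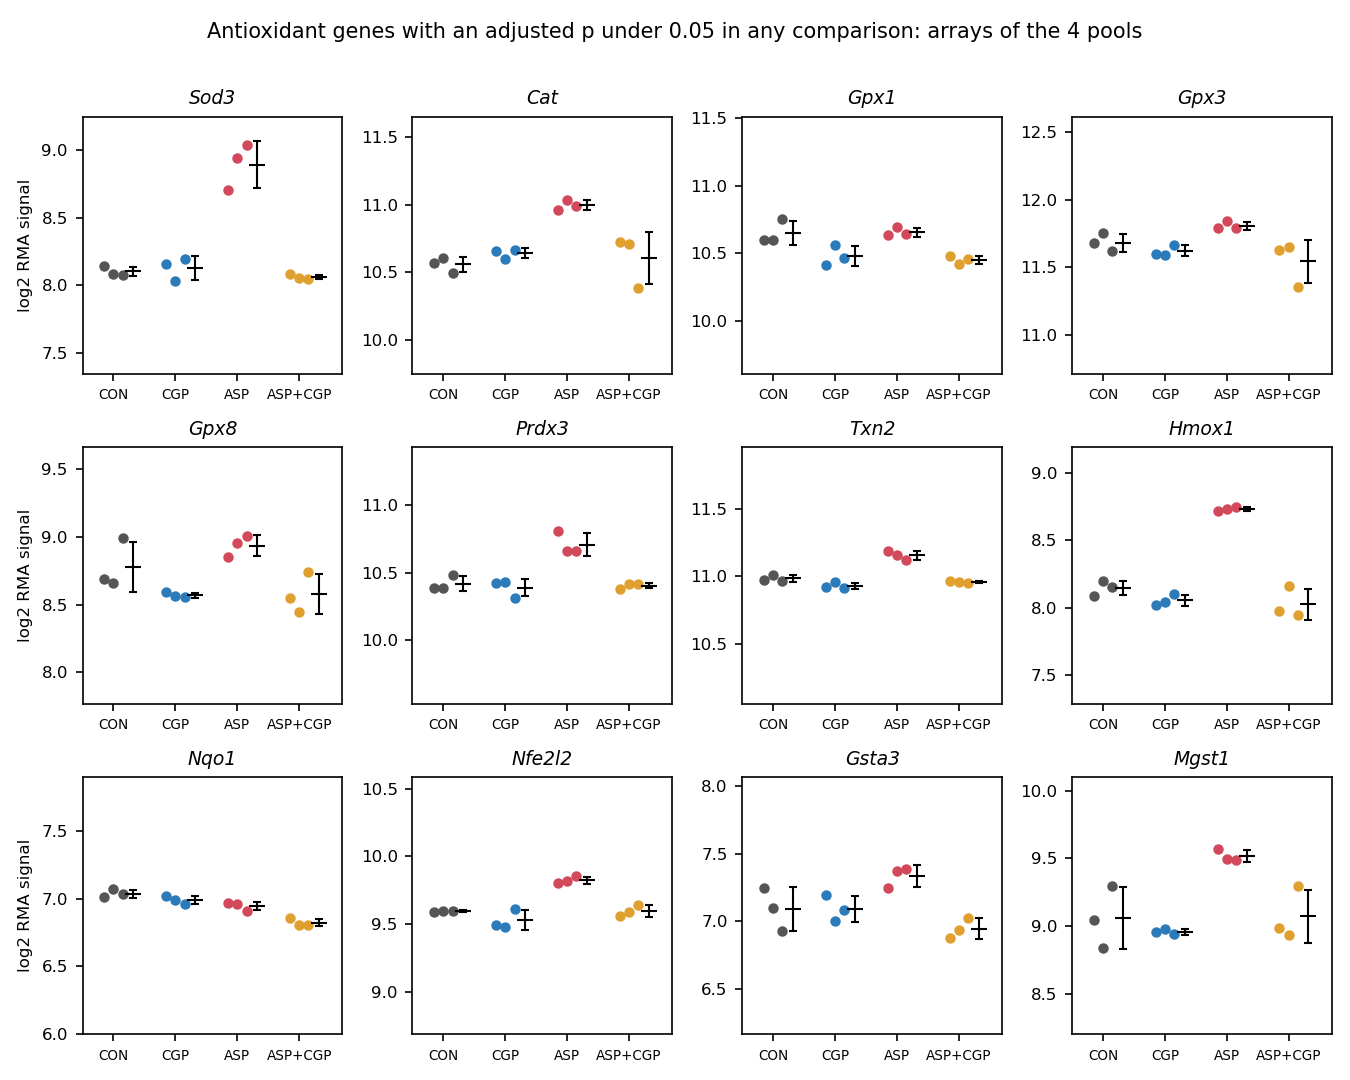
Log2 RMA signal of the 12 members that passed the test in at least 1 comparison. Points are the 3 arrays of each pool, horizontal bars the mean and vertical bars the SD, and every panel spans the same range of log2 units. The ASP arrays stand above all other arrays for Sod3, Cat, Gpx3, Prdx3, Txn2, Hmox1, Nfe2l2 and Mgst1, while for Nqo1 the ASP+CGP arrays, at 6.80 to 6.85, are the lowest.

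The pool with developmental exposure to CGP 39551 and without aspartame was compared with the CON pool. Between CGP and CON, 0 of 37 members passed by limma, against 0.489% of all genes higher and 0.140% lower. An unadjusted p under 0.05 by limma was reached by 3 members (Gpx1, Gpx8 and Hmox2) and by 1997 of the 17186 genes in all. DEGs made up 0.0931% of all genes higher and 0.0175% lower, and 0 of the members. Gpx8 differed by -0.21 ± 0.09 (adjusted p = 0.365) and Gpx1 by -0.17 ± 0.05, and without CON array 3, the highest of its pool for both, the differences were -0.10 and -0.12. The 95% intervals of all 37 members lay within a 1.4-fold change in either direction, as they did for 99.3% of all genes. The median difference was -0.04 for members and 0.01 for all genes, with 25 members below 0 and 12 above. All CGP arrays lay above the CON arrays for 2 members and below them for 6, against 12.0% and 7.39% of all genes. The pituitary list moved in this comparison, with 8 of 12 markers significantly higher in CGP. Of 17 hypothalamic neuropeptides and regulators, a list that shares Pomc with the pituitary list, 1 was higher and 4 were lower. Among choroid plexus markers 2 of 10 were higher. The part of these lists in the values of the members was not tested.

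With both agents, the only member that passed against CON was Nqo1, which was lower in ASP+CGP. It fell by 0.22 on the log2 scale (± 0.04 SE, 1.16-fold, adjusted p = 0.0127), and its 3 ASP+CGP arrays lay below all other arrays. That is 1 of 37 members against 0.919% of all genes lower and 0.826% higher, and 0 members were DEGs, against 0.140% and 0.0407% of all genes. An unadjusted p under 0.05 by limma was seen for 7 of the 37 members and for 2640 of the 17186 genes in all. The adjusted p of Nqo1 was 0.172 with CON and ASP+CGP fitted alone, and it was 0.0667 without CON array 2 and 0.0511 without ASP+CGP array 2. The 7 members that were higher in ASP differed from CON by -0.12 for Hmox1 to 0.05 for Cat in ASP+CGP, none past the threshold. In this comparison 0 of 12 adrenal cortex, 0 of 14 exocrine pancreas and 1 of 14 white adipose markers were higher, while 6 of 12 pituitary and 7 of 12 meningeal and fibroblast markers were lower, as were 6 of 17 hypothalamic neuropeptides and regulators. Higher in ASP+CGP were 4 of 8 cerebellum, 2 of 10 choroid plexus and 1 of 9 oligodendrocyte markers, and 2 of 8 lymphoid markers were lower. The part of these lists in the Nqo1 value was not tested. The arrays did not overlap for 8 members, 2 above and 6 below CON, against 7.15% and 10.2% of all genes.

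The direct comparison of the aspartame pools, which uses the ASP arrays a second time, sets the ASP pool against the ASP+CGP pool. Of 37 members 11 (29.7%) were higher in ASP than in ASP+CGP, against 4.25% of all genes, and 0 were lower, against 2.67%. Sod3 differed 1.78-fold (0.83 ± 0.07, adjusted p = 3.05e-06) and Hmox1 1.63-fold (0.70 ± 0.05, adjusted p = 1.06e-06), and these 2 were the DEGs (5.4% of members, against 1.24% of all genes higher and 0.0349% lower). Mgst1 (0.45 ± 0.10), Cat (0.39 ± 0.07), Prdx3 (0.30 ± 0.05), Nfe2l2 (0.23 ± 0.04) and Txn2 (0.20 ± 0.04) were higher here as they were against CON.

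The other 4 members passed in this comparison and not in ASP vs CON. Gsta3 was at 7.24, 7.37 and 7.38 in ASP and at 6.87, 6.94 and 7.03 in ASP+CGP (0.39 ± 0.08, adjusted p = 0.00639). Gpx8 differed by 0.36 ± 0.09 (adjusted p = 0.0226), Gpx3 by 0.26 ± 0.07 (adjusted p = 0.0299) and Gpx1 by 0.20 ± 0.05 (adjusted p = 0.0306). The Gpx3 arrays of ASP+CGP read 11.62, 11.65 and 11.36, and without the low array 3 the Gpx3 difference was 0.17. The 3 peroxidases and Mgst1 lost significance when single arrays were left out, with adjusted p between 0.0538 and 0.124. For Gpx1 this was any ASP or ASP+CGP array, for Gpx3 any ASP array or ASP+CGP array 3, for Gpx8 ASP array 2 or 3 or ASP+CGP array 1 or 2, and for Mgst1 ASP array 1 or ASP+CGP array 1 or 2. The same 4 genes also lost significance in a linear model without moderation of the spread. The arrays of ASP lay above those of ASP+CGP for 15 members and below for 2, Sod2 and Txn1, against 12.3% and 14.6% of all genes. The median difference was 0.04 for members and -0.01 for all genes. Here too 12 of 12 adrenal cortex and 13 of 14 white adipose markers were higher in ASP, together with 10 of 12 pituitary and 8 of 12 meningeal and fibroblast markers. Lower in ASP were 5 of 8 cerebellum, 2 of 9 oligodendrocyte, 2 of 8 ependyma and tanycyte and 1 of 12 pituitary markers. Of 10 choroid plexus markers 3 were higher and 1 was lower.

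An interaction test compared the aspartame difference between pools with and without CGP 39551. The interaction is the difference ASP+CGP minus CGP less the difference ASP minus CON. It was negative and significant for 3 of 37 members, against 2.78% of all genes, and positive for 0, against 1.23%. Sod3 gave -0.86 ± 0.10 (adjusted p = 0.000113), Hmox1 -0.61 ± 0.08 (adjusted p = 0.000238) and Cat -0.47 ± 0.11 (adjusted p = 0.0211). Their aspartame differences were 0.79, 0.58 and 0.44 without CGP 39551 and -0.07, -0.03 and -0.04 with it. Sod3 and Hmox1 also passed the 1.4-fold limit, as 1.35% of all genes did in the negative and 0.145% in the positive direction. The interaction did not pass for the other members that rose in ASP, with -0.28 ± 0.07 for Prdx3 (adjusted p = 0.0517), -0.34 ± 0.14 for Mgst1 (adjusted p = 0.231), -0.16 ± 0.06 for Nfe2l2 (adjusted p = 0.199) and -0.14 ± 0.05 for Txn2 (adjusted p = 0.178). The interaction of Cat was lost without CON array 3, CGP array 1 or 3, or ASP array 2 or 3, with adjusted p between 0.05001 and 0.0623. In the same test 12 of 12 adrenal cortex markers were negative and significant, with a median of -3.00. So were 6 of 6 adrenal medulla, 13 of 14 exocrine pancreas, 10 of 14 white adipose, 5 of 5 brown adipose, 10 of 12 pituitary and 4 of 8 lymphoid markers. In each of these lists 0 were positive and significant. Negative and significant too were 4 of 10 choroid plexus, 4 of 12 meningeal and fibroblast, 2 of 9 endothelium and 2 of 8 liver markers. Positive and significant were 1 of 9 oligodendrocyte and 1 of 8 ependyma and tanycyte markers. The cerebellum list had 2 positive and 1 negative of 8, and hypothalamic neuropeptides and regulators 1 positive and 2 negative of 17. Astrocyte, microglia and neuron lists had 0 significant in either direction.

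**Figure D4:**
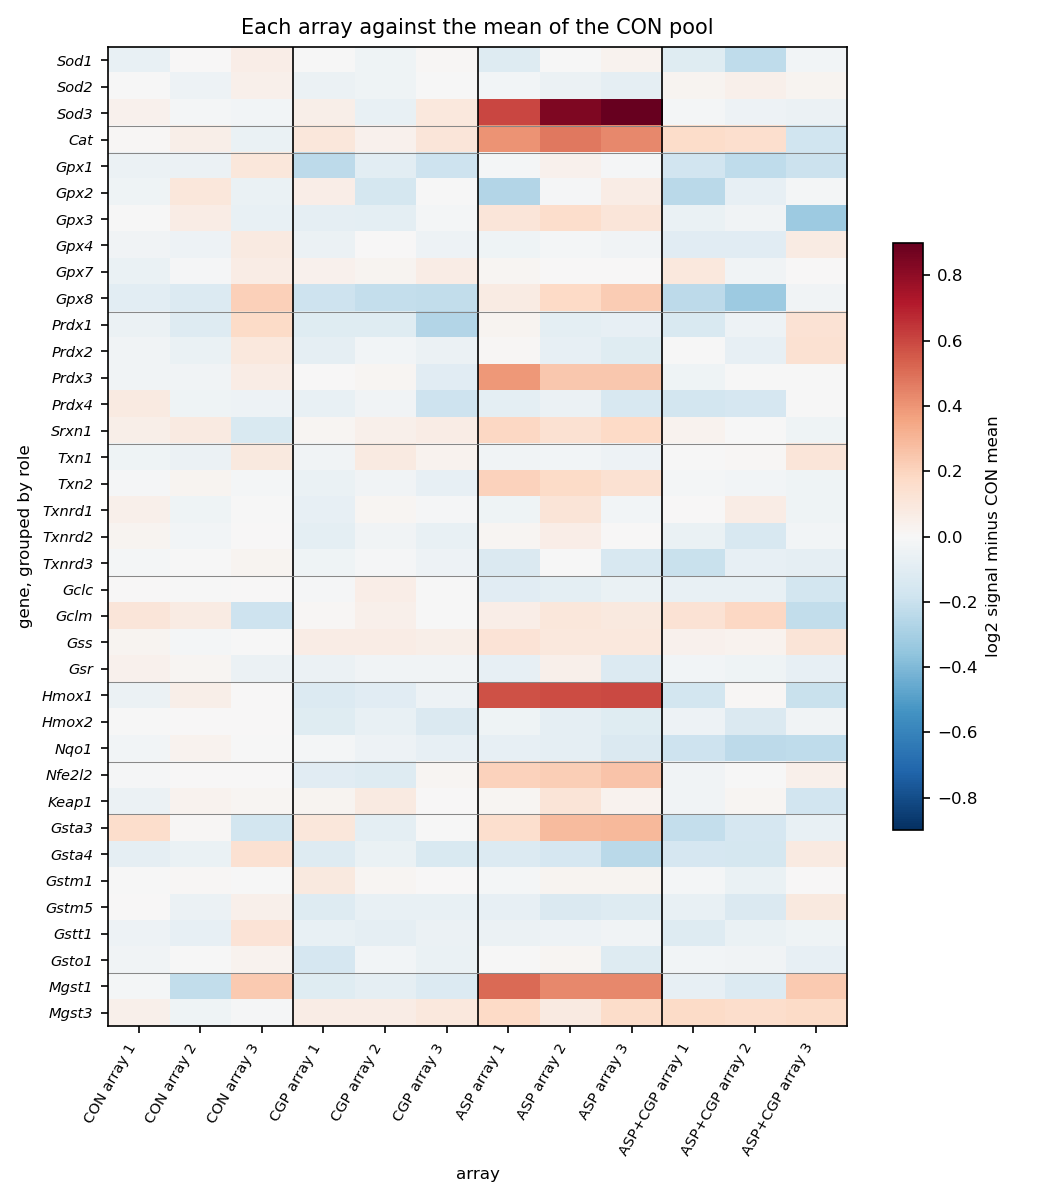
Log2 signal of each of the 37 members on each of the 12 arrays minus the mean of the CON arrays, with red above and blue below CON. Sod3, Hmox1, Mgst1, Cat, Prdx3, Txn2 and Nfe2l2 form red stretches over the 3 ASP arrays, and CON array 3 and ASP+CGP array 3 share colours in rows such as Mgst1, Prdx1 and Gclm.

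Across the 4 pools, ASP had the highest mean for 17 of 37 members and ASP+CGP the lowest for 17, where 20.3% of all genes were highest in ASP and 30.1% lowest in ASP+CGP. In at least 1 comparison 12 members passed, and 25 passed in none. Part of the spread within pools was shared between CON array 3 and ASP+CGP array 3, which lay farther from their pools than other arrays did (SD of deviations 0.0903 and 0.0996 against 0.0490 to 0.0701). For 11 of 37 members (29.7%), against 23.7% of all genes, these arrays were both the farthest from the pool mean and on the same side. Without both, 8 members passed in ASP vs CON, 12 in ASP vs ASP+CGP and 6 in the interaction, to which Gpx8, Prdx3 and Mgst1 were added. The share of all genes that passed in that fit is not given here. The larger counts are therefore not read as a result about the members.

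Around the members, 88 other genes of glutathione and redox metabolism were measured out of 96 listed. In ASP vs CON, 9 were significantly higher and 1 lower, that is 10.2% and 1.1% of the 88 against 2.92% and 1.16% of all genes, with a median difference of -0.0078 beside -0.0130 for all genes. The 4 DEGs, 4.5% of the 88 against 1.02% of all genes higher, were Akr1b8, an aldo-keto reductase of the Nrf2 target list (1.42 ± 0.05, 2.67-fold, adjusted p = 1.30e-10), Dpep1, a dipeptidase that breaks down glutathione products (1.26 ± 0.08, 2.40-fold, adjusted p = 1.33e-07), Me1, the malic enzyme that yields NADPH (0.81 ± 0.04, 1.76-fold, adjusted p = 1.11e-08), and Txnip, the thioredoxin inhibitor (0.72 ± 0.05, 1.64-fold, adjusted p = 1.75e-07). The other rises were smaller than 1.4-fold and came from Msrb3, Cybb, Gstm2, Ephx1 and Ftl1, at 0.43, 0.40, 0.33, 0.24 and 0.23. The 1 gene that fell was Slc7a11, the cystine importer that feeds glutathione synthesis, by 0.22 on the log2 scale (adjusted p = 0.0204).

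Set out by list, and to be read against the 2.92% of all genes that were higher, 3 of 11 other Nrf2 targets, 1 of 13 other glutathione transferases, 1 of 8 glutaredoxins and methionine sulfoxide reductases, 1 of 7 genes of NADPH supply, 1 of 14 oxidant-producing enzymes and 1 of 13 other antioxidant genes were higher in ASP than in CON. In lists of this length a single gene is a share above that of all genes. Glutathione transport and breakdown had 1 higher and 1 lower of 12. Of the 10 partners and regulators of Nrf2, 0 passed by limma and 0 had an unadjusted p under 0.05.

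In CGP vs CON 0 of the 88 passed, against 0.489% of all genes higher and 0.140% lower. An unadjusted p under 0.05 by limma was reached by 5 of the 88 and by 1997 of the 17186 genes in all. In ASP+CGP vs CON 2 were lower (2.3%, against 0.919% of all genes), Txnip by 0.26 and Ephx1, an epoxide hydrolase, by 0.25. Between ASP and ASP+CGP 12 were higher and 1 lower (13.6% and 1.1%, against 4.25% and 2.67% of all genes), with Akr1b8 at 1.59, Dpep1 at 1.32, Txnip at 0.98 and Me1 at 0.78, and Cul3, a scaffold of the ligase that degrades Nrf2, at -0.20. The interaction was negative and significant for 10 of the 88 (11.4%, against 2.78% of all genes), among them Akr1b8 at -1.60, Dpep1 at -1.48, Txnip at -1.18 and Me1 at -0.78.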

How the data were processed

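Hypothalamic RNA pools of 4 groups were measured on 12 Affymetrix Mouse Gene 1.0 ST arrays, 3 per group, with groups and array numbers taken from the sample labels. The deposited values are log2 signals that the authors made by RMA in Partek software (named in the submitters' processing notes), with background correction, quantile normalization across arrays and median polish. Quantile normalization removes a shift shared by most genes, and background understates differences of weak probe sets. The methods filter values below log 6, yet values under 6 stood on 1 or more arrays for 2496 of 29149 probe sets.

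Of 29149 probe sets, 19019 had 1 gene symbol in the platform annotation, 1197 several and 8933 none. For 18947 the gene was found in RefSeq (GRCm38.p6). Probe sets at 6 or more on at least 3 arrays were kept (18810), with the highest mean per gene, leaving 17186 genes. limma 3.58.1 in R 4.3.3 (lmFit, eBayes) was fitted to all 12 arrays with group means, 8 residual and 5.43 prior degrees of freedom, and Benjamini-Hochberg adjustment within each of 5 contrasts. Genes with an adjusted p under 0.05 are called significant, and those also over 1.4-fold DEGs. Values after ± are standard errors. The number of arrays limits the precision. The steps were tested on simulated data.

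Members and gene lists were chosen with earlier results of these data known. Members that passed in any contrast were given by array, other members by role, list genes only where called or counted, and further names were chosen after their values were seen. Alternatives were other filters, probe set rules, normalizations, tests, adjustments and fold limits, the array number as a block, and leaving out arrays. Same-numbered arrays of different pools deviated together at r = -0.106 to 0.541, so the numbers were not used as pairs. Array scans before RMA and the adrenal arrays of the study were not analysed here.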

Additional observations from a re-analysis of the deposited data

Results flagged for a closer look

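In this set 3 of 37 members had a significant interaction term in the limma fit, all of them negative. Of all genes, 2.78% had a significant negative term and 1.23% a positive one. For the 3 members the aspartame difference was not the same between pools with and without developmental exposure to CGP 39551. The test measures the spread between arrays of a pool and not between mice. The log2 aspartame difference of the pools with CGP 39551 minus that of the pools without it was -0.86 for Sod3, -0.61 for Hmox1 and -0.47 for Cat. In all 3 the ASP arrays stood above the arrays of the other pools. The adrenal cortex markers gave a median of -3.00 in the same term and the pituitary markers one of -2.16. White adipose and exocrine pancreas markers gave medians of -1.70 and -1.08. Astrocyte, oligodendrocyte, microglia and neuron markers gave medians of -0.03, -0.004, 0.01 and 0.07. The part of these lists in the 3 values was not tested.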

How the results depend on the processing

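Of 502 values recomputed for the 22 significant member differences, 459 kept their direction and their side of the threshold, 43 lost significance and 0 reversed. Sod3, Hmox1, Cat, Prdx3 and Nfe2l2 stayed significant in ASP vs CON under all 23 alternatives run. Without moderation Mgst1 in ASP vs CON, Gpx1, Gpx3, Gpx8 and Mgst1 in ASP vs ASP+CGP (count 11 to 8, with Nqo1 gained) and Cat in the interaction lost significance, and with only their own pools fitted Txn2 in ASP vs CON and Gpx3 in ASP vs ASP+CGP did. At a 1.2-fold limit the DEGs among members numbered 5 in ASP vs CON and 8 in ASP vs ASP+CGP, and at 1.5-fold 1 remained in ASP vs CON, since Hmox1 lies just under that limit. The count in ASP+CGP vs CON was 1 and became 2 with arrays centred on their medians, 3 with an intensity trend and robust prior, 2 without moderation, 2 with adjustment over all contrasts and 0 with only its own pools fitted. Mgst3 was added in each fit that raised it, with Gpx1 beside it in the trend fit. Nqo1 was not tested under the filter at a mean of 7. The interaction count was 6 without CON array 3 and ASP+CGP array 3. The share of all genes that passed is not given for the alternatives, so their counts describe the members only. Leaving out 1 array at a time gave 5 to 7 significant members and 2 to 3 DEGs in ASP vs CON, 0 to 0 in CGP vs CON, 0 to 1 in ASP+CGP vs CON, 8 to 12 and 2 to 3 in ASP vs ASP+CGP, and 2 to 4 and 2 to 3 in the interaction. The DEG added was Mgst1 in ASP vs CON (without CON array 3) and in ASP vs ASP+CGP (without ASP+CGP array 3), and Cat in the interaction. Members that became significant with 1 array left out were Gsta3 without CON array 1, in ASP vs CON and the interaction, Srxn1 without CON array 3, in ASP vs ASP+CGP, and Prdx3 without CON array 3 or CGP array 3, in the interaction. In ASP vs CON, Mgst3 was gained in the trend fit and without moderation, and Gss without moderation. In the interaction, Prdx3 was gained in the trend fit and under the filter at a mean of 7, and Txn2 without moderation. With the array number as a replicate block the counts were 7, 0, 1, 11 and 3 significant members and 2, 0, 0, 2 and 2 DEGs, the same counts as without it, and 5 of 12 arrays correlated best with an array of their own number. The causes of these shifts were not tested. All arrays of a pool share RNA, so no alternative bears on the spread between mice.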
